A study of Sus scrofa with 4 samples.

Results

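The genes described here encode 7 transcription factors that are best known from the epithelial-to-mesenchymal transition, namely ZEB1, ZEB2, SNAI1, SNAI2, TWIST1, TWIST2 and PRRX1, together with the circular RNAs (circRNAs) of ZEB1. The 7 genes were taken by name from the 16192 protein-coding genes listed, and all 7 were found. The circRNAs were those of the 8623 listed whose 2 ends both lay inside the ZEB1 gene. This gave 19 ZEB1 circles, all on the strand of ZEB1, and 26 features out of 31567. The genes and circles were selected on their FPKM and SRPBM over the 4 stages (the levels of mRNAs and of circRNAs), since earlier results of these data were known when they were chosen, so that their levels are given as a description.

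Subcutaneous preadipocytes were taken from male Chinese Erhualian piglets aged 5 days and differentiated in culture. D0 cells were confluent and had received no hormone, D2 cells had been kept for 2 days with a cocktail of dexamethasone, 3-isobutyl-1-methylxanthine and insulin, D4 cells had been kept for a further 2 days with insulin alone, and D8 cells had then been returned to growth medium without added hormone. Growth medium with fetal bovine serum was the base at all 4 stages. For each stage, RNA from 3 piglets was pooled in equal amounts into 1 strand-specific library of rRNA-depleted RNA. There was thus no replicate, a stage and its library cannot be told apart, and stages could not be tested. The 95% intervals given with log2 ratios cover counting error only. In a mixed culture, fewer cells that express a gene and less RNA per cell cannot be told apart either.

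ZEB, SNAI and TWIST proteins bind E-box motifs in DNA and are known as repressors of epithelial genes such as CDH1, the gene of E-cadherin. ZEB1 and ZEB2 carry 2 clusters of zinc fingers around a homeodomain, SNAI1 and SNAI2 (also called Snail and Slug) are zinc finger repressors, TWIST1 and TWIST2 are basic helix-loop-helix proteins that act as dimers with E-proteins, and PRRX1 is a paired-type homeobox protein of mesenchymal progenitors. Preadipocytes are mesenchymal cells, in which these genes are normally active. A circRNA arises when the end of an exon is spliced back to the start of the same or an earlier exon, and it is recognized by reads across that back-splice junction.

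The levels of mRNAs are FPKM, fragments per kilobase of transcript scaled to the fragments counted in the library, and those of circRNAs are SRPBM, back-splice junction reads scaled to the reads mapped in it. The fragments behind FPKM, as recovered from the deposited values, numbered between 54128151 (D8) and 75387428 (D0) per library, and junction reads between 37480 (D8) and 53207 (D0). A single junction read was worth between 5.94 SRPBM (D4) and 8.40 SRPBM (D8), and the depth floor of 3 reads lay between 17.8 SRPBM (D4) and 25.2 SRPBM (D8). In each comparison, an mRNA was counted as higher or lower from a 2-fold ratio on, among the 9191 reliably expressed mRNAs (FPKM of 1 or more in 3 or 4 libraries). All 7 genes were in that set. The median log2 ratio of the 9191 mRNAs was -0.03 for D2 vs D0, 0.06 for D4 vs D0, -0.18 for D8 vs D0 and -0.21 for D8 vs D4, so that a D8 value is to be read against a general offset of that size.

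The cultures carried the marks of adipocyte differentiation. Of 11 adipocyte markers, 9 were reliably expressed, and all 9 were at least 2-fold higher than at D0 in each later library. Of all 9191 mRNAs, 6.67% were that much higher at D2, 10.4% at D4 and 3.60% at D8. Summed FPKM over the 11 markers was 125, 510, 1823 and 2131 in the libraries of D0, D2, D4 and D8. The stromal preadipocyte markers stayed present, with 8 of 10 reliably expressed and summed FPKM between 395 (D0) and 788 (D4), but their courses differed. At D2, 2 of the 8 were at least 2-fold higher than at D0 and 1 lower (10.1% of all mRNAs lower). At D4, 3 were higher (LUM, DCN and PDGFRB) and 2 lower (NT5E and DPP4, 8.81% of all lower). At D8, 1 was higher and 2 lower (3.68% of all lower). Of 4 smooth muscle markers, 3 were reliably expressed, and their summed FPKM was 3438 in the D0 library, 366 in that of D2, 232 in that of D4 and 2823 in that of D8, most of it from ACTA2. Summed FPKM over 6 endothelial markers lay between 1.16 (D2) and 2.74 (D0). Most of it came from PECAM1, with 2.56, 1.14, 1.70 and 1.87 at D0, D2, D4 and D8, while VWF, CDH5, KDR, TEK and CLDN5 were each under 0.2. Summed FPKM over 5 immune markers lay between 3.54 (D0) and 8.03 (D4), mostly CD14. The part of these cell types in the values of the 7 genes was not tested. Of 4 myogenic markers, 3 were not analysed here, and MYOG had an FPKM of at most 0.03.

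ZEB1 was highest in the D0 library and lowest at D4, whereas 4 of the other 6 genes were highest at D4 and the remaining 2 at D2. SNAI2 was the most abundant of the 7 at D4, with an FPKM 22.2 times that of ZEB1, against 2.46 times at D0. At D8, none of the 7 differed at least 2-fold from D0, where 3.60% of all mRNAs were higher and 3.68% lower by that much, so that this is near the background.

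**Figure D1:**
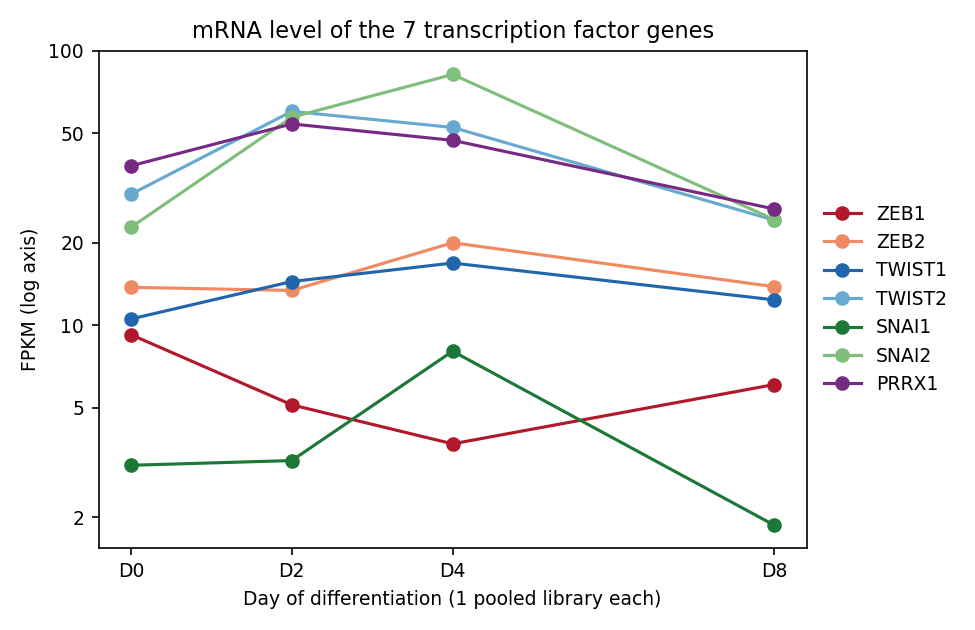
FPKM (log axis) of the 7 transcription factor genes against the day of differentiation, 1 pooled library per point. ZEB1 goes down from 9.24 at D0 to 3.70 at D4, while SNAI2 goes up from 22.7 to 82.0 and comes back to 24.2 at D8.

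ZEB1 (gene ID 100520325) lies on the plus strand of chromosome 10 from 42013114 to 42216139 of the pig genome Sscrofa11.1. Its FPKM was 9.24 at D0 and then 5.13, 3.70 and 6.08 at D2, D4 and D8, from 3711, 1502, 1464 and 1753 reads, respectively. The D0 library was the highest and D4 the lowest, with D8 between D0 and D2. The log2 ratio to D0 was -0.85 at D2 (95% counting interval -0.94 to -0.76), -1.32 at D4 (-1.41 to -1.23) and -0.60 at D8 (-0.69 to -0.52). At D4 the ratio corresponded to a level 2.50-fold lower than at D0 and stood at percentile 5.36 of the 9191 mRNAs. From D4 to D8 the ratio was 0.72 (0.62 to 0.82).

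ZEB2 (gene ID 100739669, chromosome 15 from 7498879 to 7631347, plus strand), the paralog of ZEB1, had an FPKM of 13.7, 13.4, 19.98 and 13.8 in the libraries of D0, D2, D4 and D8. D4 was the highest library, and the other 3 did not differ beyond counting error, since the intervals of D2 vs D0 (-0.10 to 0.02), D8 vs D0 (-0.05 to 0.07) and D8 vs D2 (-0.02 to 0.11) all included 0. When scaled to summed protein-coding FPKM, D2 vs D0 changed sign (0.07), and under median-ratio scaling D8 vs D0 was 0.16. D4 against D0 gave a log2 ratio of 0.54 (0.49 to 0.59). The ratio of ZEB2 to ZEB1 in FPKM was 1.49 in the D0 library, 2.61 in that of D2, 5.40 in that of D4 and 2.27 in that of D8. At D4 the 2 paralogs thus lay furthest apart, on opposite sides of their D0 levels.

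SNAI2 (gene ID 102162332, chromosome 4 from 79264880 to 79268475, plus strand) had the highest ratio to D0 of the 7 genes. Its FPKM was 22.7 at D0 and then 57.2, 82.0 and 24.2 at D2, D4 and D8, from between 2579 and 11975 reads. Both the D2 and the D4 library were above the other 2, which were close to each other. The log2 ratio to D0 was 1.33 at D2 (1.27 to 1.39), 1.85 at D4 (1.79 to 1.91) and 0.09 at D8 (0.02 to 0.17). From D4 to D8 the level was 3.38-fold lower, with a log2 ratio of -1.76 (-1.82 to -1.70).

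SNAI1 (gene ID 396583, chromosome 17 from 51546446 to 51552498, plus strand) was the least abundant of the 7 genes at D0, D2 and D8. Its FPKM was 3.09, 3.21, 8.04 and 1.87 in the libraries of D0, D2, D4 and D8, from 394, 299, 1012 and 171 reads. A single library, D4, was high, and D0 and D2 did not differ beyond counting error (log2 ratio 0.06, interval -0.16 to 0.28). The log2 ratio was 1.32 for D4 vs D2 (1.14 to 1.51) and -2.10 for D8 vs D4 (-2.35 to -1.87), and the 4.29-fold lower level at D8 stood at percentile 0.729 of all 9191 mRNAs. Unlike SNAI2, SNAI1 ended below its D0 level, with a log2 ratio of -0.72 (-0.99 to -0.46). The ratio of SNAI2 to SNAI1 in FPKM ranged from 7.36 at D0 to 17.8 at D2.

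TWIST2 (gene ID 100519927, chromosome 15 from 138228640 to 138276341, plus strand) had an FPKM of 30.0 in the D0 library, 60.1 in that of D2, 52.6 in that of D4 and 24.1 in that of D8. The D2 and D4 libraries were the high ones, with D2 highest. The log2 ratio to D0 was 1.003 at D2 (0.94 to 1.07), which is close to the 2-fold limit, 0.81 at D4 (0.75 to 0.87) and -0.31 at D8 (-0.40 to -0.23). From D4 to D8 it was -1.12 (-1.20 to -1.05).

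TWIST1 (gene ID 100516456, chromosome 9 from 88286911 to 88290131, minus strand) stayed within 2-fold, with an FPKM of 10.5 at D0 and then 14.4, 16.9 and 12.4 at D2, D4 and D8. The order of the libraries was D4, D2, D8 and D0, and each pair of neighbours in it differed beyond counting error but under 2-fold. D4 against D0 gave a log2 ratio of 0.68 (0.60 to 0.76). TWIST2 was above TWIST1 in each library, between 1.95 times (D8) and 4.17 times (D2).

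PRRX1 (gene ID 100738910, chromosome 4 from 80427682 to 80502689, minus strand) was the most abundant of the 7 at D0 and D8 and lies on the same chromosome as SNAI2. Its FPKM was 38.1, 54.1, 47.2 and 26.5 in the libraries of D0, D2, D4 and D8. All 4 libraries differed beyond counting error, with log2 ratios to D0 of 0.51 at D2 (0.48 to 0.54), 0.31 at D4 (0.28 to 0.34) and -0.52 at D8 (-0.56 to -0.48). Its paralog PRRX2 was highest at D0 and lowest at D4. PRRX2 had an FPKM of 104 in the D0 library, 33.3 in that of D2, 29.4 in that of D4 and 59.8 in that of D8, with a log2 ratio of D4 to D0 of -1.82 (-1.88 to -1.76). At D0 the PRRX2 level was therefore above that of PRRX1, at D2 and D4 below it, and at D8 above it again. SNAI3 was not analysed here.

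Set against all mRNAs, 2 of the 7 genes (SNAI2 and TWIST2) were at least 2-fold higher at D2 than at D0, where 6.67% of the 9191 mRNAs were, and none was at least 2-fold lower (10.1% of all). Between D4 and D0, SNAI1 and SNAI2 were higher (10.4% of all) and ZEB1 was lower (8.81% of all). Between D4 and D2, SNAI1 alone was higher (4.24% of all) and none was lower (0.838% of all). Between D8 and D4, TWIST2, SNAI1 and SNAI2 were lower (10.1% of all) and none was higher (4.43% of all). Under median-ratio scaling this count was 2, since the log2 ratio of TWIST2 was then -0.91. Between D8 and D0 none of the 7 was 2-fold higher (3.60% of all) or lower (3.68% of all). Between D8 and D2, TWIST2, SNAI2 and PRRX1 were lower (4.79% of all) and none was higher (7.01% of all). The median log2 ratio of the 7 genes was 0.45 for D2 vs D0, 0.68 for D4 vs D0 and -0.83 for D8 vs D4, beside -0.03, 0.06 and -0.21 for all 9191 mRNAs. The comparisons share libraries, and each value is that of its own pair.

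**Figure D2:**
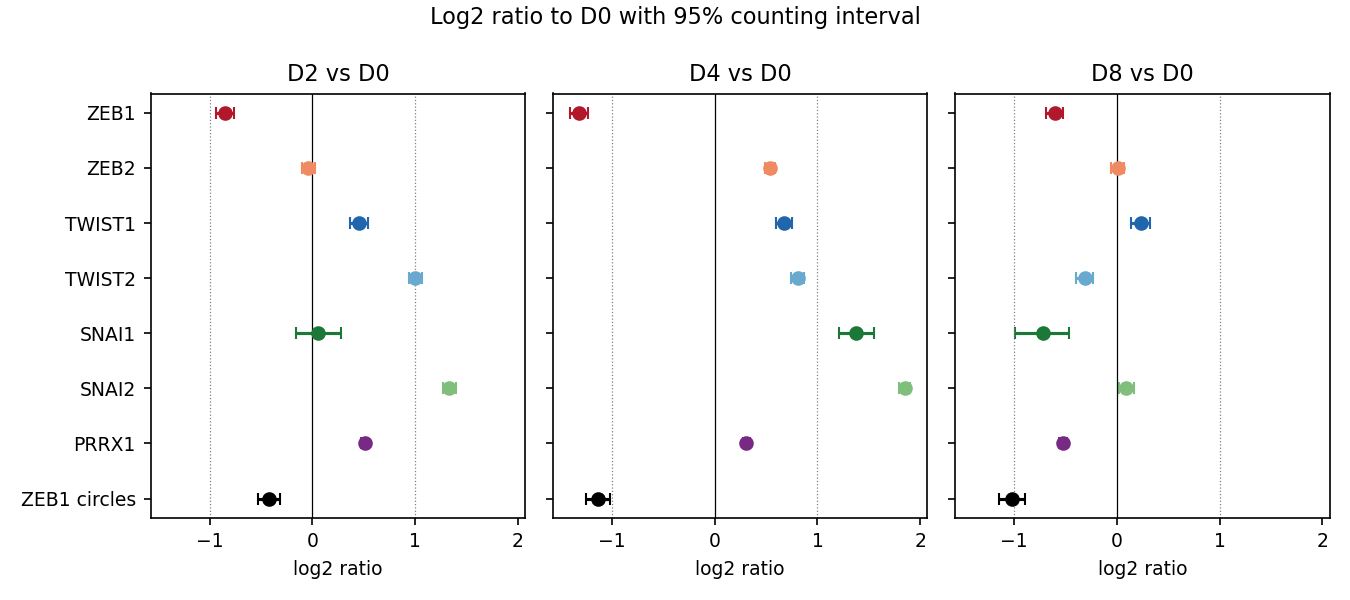
Log2 ratio to D0 at D2, D4 and D8 for the 7 genes (FPKM) and for the 19 ZEB1 circles summed (SRPBM). Bars are 95% intervals for counting error and dotted lines mark 2-fold. At D4, ZEB1 (-1.32) and its circles (-1.13) lie on the left of 0 and the other 6 genes on the right, up to 1.85 for SNAI2.

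Among themselves, the 7 genes were compared by the root mean square difference of their 3 log2 ratios to D0. The closest pair was ZEB2 and TWIST1 (0.32), followed by TWIST2 and PRRX1 (0.42). The most distant was ZEB1 and SNAI2 (2.26), and the smallest difference of ZEB1 from any of the others was 1.22, from ZEB2. Over the 9190 other reliably expressed mRNAs and the same 3 ratios, the profiles most like ZEB1 were those of KCTD15 (0.05), STX2 (0.07) and HDGFL3 (0.08). The nearest to SNAI2 were GAA (0.06), PIGS (0.07) and TBC1D2B (0.07), and the nearest to TWIST2 were UPF3B, LAMC1 and ETV6 (0.05 to 0.07). For PRRX1 they were MBLAC2, ABHD17C and CCDC18, for TWIST1 WDSUB1, BANP and MGA, and for ZEB2 JMJD1C, PAM and LOC110262272, each within 0.05. The nearest genes of SNAI1, TLE3 (0.23), ALDH1A3 (0.24) and METTL13 (0.26), were further away than those of the other members. SNAI1 also had the fewest reads of the 7 genes, from 171 (D8) to 1012 (D4). Its counting intervals against D0, such as -0.99 to -0.46 at D8, were wider than 0.2, so that counting error may add to these distances. No mRNA lay within 0.2 of SNAI1, against 18 for SNAI2, 77 for TWIST2, 91 for ZEB1, 212 for PRRX1, 445 for ZEB2 and 580 for TWIST1. With 4 libraries such likeness is common, and it is given as a description.

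ZEB1 was a leading source of circRNAs in these cells. Its 19 circles held 1812 of 53207 junction reads at D0, 3.41% (95% Wilson interval 3.25% to 3.56%), and 2.72%, 1.75% and 1.82% at D2, D4 and D8. Among the 3320 protein-coding genes that enclosed at least one circRNA on their strand, ZEB1 had the most junction reads at D0 and at D2 and was in place 2 at D4 and D8. It was in place 5 by the number of circles, 19 against a median of 2. The other 6 genes gave few circles or none. One circle lay in ZEB2 (ssc_circ_0007581, chromosome 15 from 7586373 to 7591848) with 10 junction reads at D0 and 6, 0 and 4 at D2, D4 and D8, and none was listed inside SNAI1, SNAI2, TWIST1, TWIST2 or PRRX1.

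**Figure D3:**
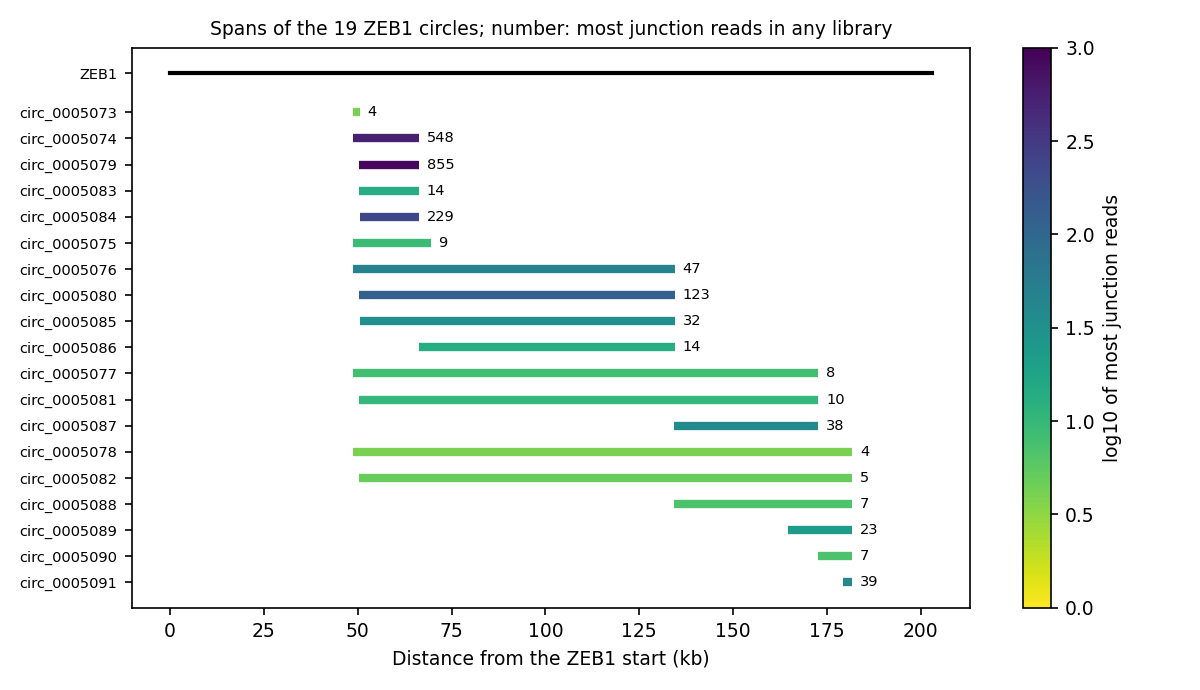
Spans of the 19 ZEB1 circles, drawn from the start to the end of each back-splice in kilobases from the ZEB1 start, with the ZEB1 gene as a black line on top. The number beside a bar is the most junction reads in any of the 4 libraries, and the colour is its log10. The abundant circles (855, 548 and 229 reads) share their end, 66 kb from the ZEB1 start.

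The 19 circles combined 9 starts and 6 ends, all between 48759 and 181799 bases from the ZEB1 start, and spanned 1799 to 133041 bases of the genome. Their median span was 38467 bases, against 8149 for all circRNAs. Of the 6 ends, the one at 42079536 held 4 circles and 1637 of the 1812 junction reads at D0 (90.3%), and 77.0%, 78.2% and 76.7% of them in the later libraries. The end at 42147610 also held 4 circles, with 4.36% of the ZEB1 circle reads at D0 and 16.2%, 16.0% and 17.9% at D2, D4 and D8. This rise rested on ssc_circ_0005080, which was listed at 0 at D0. The other 3 circles with this end held 4.36%, 5.94%, 5.49% and 2.64% of all ZEB1 circle reads. The reads of ssc_circ_0005080 also add to the total behind the later shares of the end at 42079536. The ends at 42185876 (3 circles) and 42194913 (6 circles) held between 2.18% and 3.85% each. The starts at 42063516, 42063542 and 42063616 all fall within 100 bases. Exon boundaries were not used here, so that these positions are those of the deposited back-splices. The span of a circle is a genomic distance and not its length in RNA.

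The most abundant ZEB1 circle was ssc_circ_0005079, chromosome 10 from 42063516 to 42079536. It had 855 junction reads at D0 and 559, 442 and 285 at D2, D4 and D8, or 5487, 4061, 2624 and 2394 SRPBM. It ranked 1 of all 8623 circRNAs at D0 and D2, and 3 at D4 and D8. Each library after D0 was lower, with log2 ratios to D0 of -0.43 at D2 (-0.59 to -0.28), -1.06 at D4 (-1.23 to -0.90) and -1.20 at D8 (-1.39 to -1.001), while D4 and D8 did not differ beyond counting error (-0.13, -0.35 to 0.09).

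The next circle, ssc_circ_0005074, starts further upstream at 42061873 and has the same end. It had 548 junction reads at D0 and 260, 242 and 191 at D2, D4 and D8, and ranked 2 of all circRNAs at D0. D0 was again the high library, and the log2 ratio to D0 was -0.90 at D2 (-1.12 to -0.68), -1.29 at D4 (-1.52 to -1.07) and -1.13 at D8 (-1.38 to -0.89). Per 100 reads of ssc_circ_0005079 there were 64.1 reads of ssc_circ_0005074 at D0 and then 46.5, 54.8 and 67.02 at D2, D4 and D8.

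The circles of place 3 and 4 were each listed at 0 in 1 library beside many reads in the others. For ssc_circ_0005084, from 42063616 to the same end, 229 junction reads were found at D0 and 89, 0 and 48 at D2, D4 and D8. Against the floor of 3 reads, the D4 level was 82.5-fold lower than that of D0. The 95% counting interval of this log2 ratio had its upper end at -6.06. For ssc_circ_0005080, from 42063516 to 42147610, there were 0 reads at D0 and 123, 94 and 104 at D2, D4 and D8. The D2 level was 46.4-fold higher than the floor at D0, and the counting interval of the log2 ratio had its lower end at 5.22. CircRNAs were kept from 2 junction reads on, so that a listed 0 may stand for 1 read. The 2 intervals take it as 0 and may therefore be too narrow. Both circles share an end or a start with ssc_circ_0005079, which was among the 3 highest circRNAs in every library. A listing at 0 next to high reads was not rare, since of the 72 circRNAs with at least 90 junction reads in one library, 11 (15.3%) were listed at 0 in another, and 2 of the 4 such ZEB1 circles were among them. How the reads of closely spaced junctions were divided in the deposited values was not tested.

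**Figure D4:**
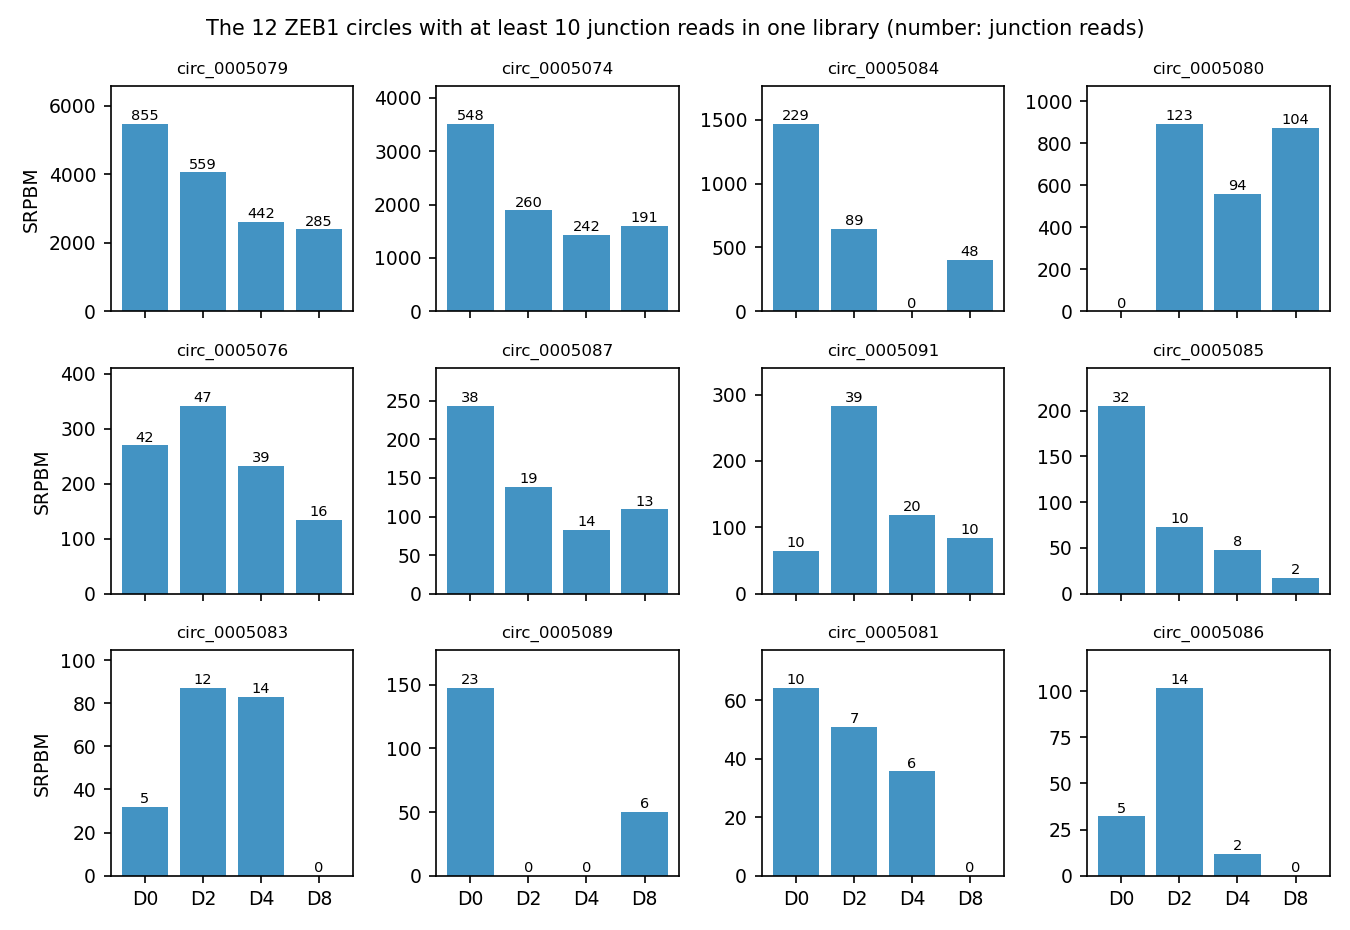
SRPBM at D0, D2, D4 and D8 of the 12 ZEB1 circles with at least 10 junction reads in one library, with the junction reads above each bar and an axis of its own for each circle. The circles ssc_circ_0005079 and ssc_circ_0005074 are highest at D0, ssc_circ_0005084 is at 0 at D4 and ssc_circ_0005080 is at 0 at D0.

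Of the 8 smaller circles with at least 10 reads in a library, 4 were also highest at D0. The circle ssc_circ_0005087, from 42147410 to 42185876, had 38 junction reads at D0 and 19, 14 and 13 at D2, D4 and D8, and ssc_circ_0005085 (42063616 to 42147610) had 32, 10, 8 and 2. For ssc_circ_0005089 (42177769 to 42194913), 23 reads were listed at D0, 0 at D2 and D4, and 6 at D8. The short circle ssc_circ_0005091, which spans 2462 bases from 42192452 to 42194913 near the downstream end of the circles, had a different course. It had 10 junction reads at D0 and 39, 20 and 10 at D2, D4 and D8, with a log2 ratio of D2 to D0 of 2.14 (1.11 to 3.31), and D2 was its highest library.

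The circle ssc_circ_0005076 (42061873 to 42147610) had 42, 47, 39 and 16 junction reads. D8 was its lowest library, though D8 and D4 did not differ beyond counting error (log2 ratio -0.78, -1.72 to 0.09). Fewer reads were found for ssc_circ_0005083 (5, 12, 14 and 0), ssc_circ_0005086 (5, 14, 2 and 0) and ssc_circ_0005081 (10, 7, 6 and 0). The other 7 circles had at most 9 junction reads in any library. In all, 6 of the 19 ZEB1 circles were above 0 in all 4 libraries (31.6%, against 13.0% of all circRNAs), 5 in 3 libraries, 3 in 2 and 5 in 1. These shares were not matched for reads, and the median circRNA above 0 had between 5 (D8) and 8 (D0) junction reads in a library. The ZEB1 circles above 0 numbered 14, 13, 13 and 10 in the libraries of D0, D2, D4 and D8.

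With at least 10 junction reads in one of the 2 libraries and reads under 3 set to 3, 12 ZEB1 circles could be compared between D2 and D0, of which 4 were at least 2-fold higher (26.7% of all circRNAs so compared) and 3 at least 2-fold lower (37.0% of all). Between D4 and D0, 2 of 11 were higher (28.5% of all) and 6 lower (39.0% of all), and between D8 and D0, 1 of 10 was higher (19.9% of all) and 8 lower (43.8% of all). Between D4 and D2, 0 of 10 were higher (30.0% of all) and 3 lower (30.4% of all), and between D8 and D4, 1 of 8 was higher (21.1% of all) and 1 lower (33.9% of all). A 2-fold difference was therefore common among circRNAs of this depth. The median log2 ratio to D0 of the circRNAs so compared was -0.34 for D2, -0.38 for D4 and -0.70 for D8. A circRNA entered from 10 raw reads in either library, so that these medians and the shares above also depend on library depth. How far they do was not tested. Scaled to the reads mapped, all junction reads together stood at 341 (D0), 320 (D2), 303 (D4) and 315 (D8) on a common scale. The medians are therefore not a measure of a general loss of circRNAs.

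Summed over the 19 circles, ZEB1 had 11628 SRPBM at D0 and 8682, 5301 and 5738 at D2, D4 and D8. The D0 library was the highest, and D4 and D8 were close to each other (log2 ratio 0.11, -0.03 to 0.26). The log2 ratio to D0 was -0.42 at D2 (-0.53 to -0.32), -1.13 at D4 (-1.25 to -1.02) and -1.02 at D8 (-1.15 to -0.89). The circles with the common end at 42079536 had the same direction, with -0.65, -1.34 and -1.25 at D2, D4 and D8. The circles ending at 42147610 went the other way, with 79 junction reads at D0 and 194, 143 and 122 at D2, D4 and D8 and a log2 ratio of D2 to D0 of 1.48 (1.09 to 1.87). That rested on ssc_circ_0005080. Without it there were 79, 71, 49 and 18 reads, and the ratio of D2 to D0 was 0.03 (-0.46 to 0.51), of D4 to D0 -0.80 and of D8 to D0 -1.75.

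The ZEB1 mRNA was thus lowest at D4, and its circles were low at D4 and D8 alike. At D2 the mRNA was at 55.5% of its D0 level and the circles at 74.7%, at D4 they were at 40.0% and 45.6%, and at D8 at 65.8% and 49.3%. Circles per mRNA, in SRPBM per FPKM, were 1258 in the D0 library, 1693 in that of D2, 1434 in that of D4 and 943 in that of D8. The log2 ratio of this quotient to D0 was 0.43 at D2 (0.29 to 0.56), 0.19 at D4 (0.04 to 0.33) and -0.41 at D8 (-0.57 to -0.26). For 511 host genes with at least 80 junction reads in the 4 libraries together and a reliably expressed mRNA, the median was 0.07, -0.15 and 0.07 at D2, D4 and D8, and ZEB1 stood at percentile 64.6, 65.8 and 23.9, respectively. FPKM counts all reads on the exons of the gene, and reads inside a circle cannot be told apart from reads of the linear mRNA. The quotient is therefore not a share of circular RNA. The D4 value was 0.029 without ssc_circ_0005080.

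**Figure D5:**
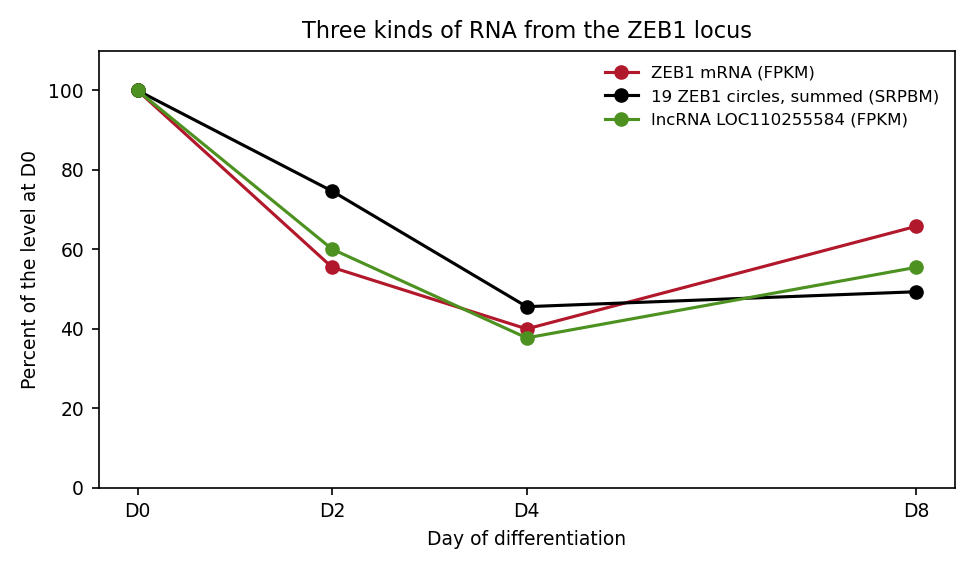
ZEB1 mRNA (FPKM), the 19 ZEB1 circles summed (SRPBM) and the lncRNA LOC110255584 (FPKM), each as a percent of its level at D0, against the day of differentiation. The mRNA and the lncRNA are lowest at D4, and at D8 the mRNA is back at 65.8%. The circles are at 45.6% at D4 and 49.3% at D8, which do not differ beyond counting error.

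Also at the locus was the annotated lncRNA LOC110255584, which lies on the same strand inside ZEB1 from 42014480 to 42105014. Of the 19 circles, 6 lay inside it, with 90.6% of the ZEB1 circle reads at D0. Its FPKM was 4.22 at D0 and then 2.53, 1.59 and 2.34 at D2, D4 and D8, and the log2 ratio to D0 was -0.73 at D2 (-0.82 to -0.65), -1.40 at D4 (-1.49 to -1.32) and -0.85 at D8 (-0.94 to -0.77). Its course resembled that of the ZEB1 mRNA. How reads were divided between ZEB1 and the lncRNA, which overlap on 1 strand, is not known here. Reads inside a circle, away from its junction, may also have been counted in either FPKM. The 3 series of values are therefore not to be taken as independent. On the other strand, ZNF438 overlaps the first 1278 bases of ZEB1 and had an FPKM of 0.20 to 0.30.

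Of 22 epithelial genes of the kind that these factors are known to repress, 21 were listed and 3 were reliably expressed, namely KRT8, KRT19 and PATJ. CDH1, named here as the textbook target after its values were seen, had an FPKM of 0.17, 0.49, 0.84 and 0.41 in the libraries of D0, D2, D4 and D8. KRT8, a keratin of simple epithelia, was the only one of the 3 to pass 2-fold against D0. Its FPKM was 4.46 in the D0 library, 8.25 in that of D2, 15.8 in that of D4 and 25.1 in that of D8. It passed 2-fold at D4 and D8, where 10.4% and 3.60% of all mRNAs were that much higher. Summed FPKM over the list was 10.9 at D0 and then 16.1, 24.2 and 34.7 at D2, D4 and D8, of which KRT8 was the larger part at D2, D4 and D8. The median log2 ratio of the 3 reliably expressed genes was 0.30, 0.30 and 0.44. Over the 5 epithelial cell markers, summed FPKM ranged from 7.92 (D0) to 30.0 (D8), most of it again from KRT8.

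Of 17 mesenchymal genes, 16 were reliably expressed. At D2, 2 were at least 2-fold higher than at D0 and 5 lower, at D4 2 were higher and 6 lower, and at D8 3 were higher and 1 lower, with a median log2 ratio of -0.45, -0.39 and -0.06. Over all 9191 mRNAs, 6.67% were higher and 10.1% lower at D2, 10.4% and 8.81% at D4, and 3.60% and 3.68% at D8. These shares are the background of this list and of the lists that follow. The lower ones included VIM, the gene of the intermediate filament vimentin (FPKM 2952, 885, 766 and 1898 in the libraries of D0, D2, D4 and D8), and the contractile genes ACTA2 (2907, 324, 225 and 2762) and TAGLN (2767, 297, 277 and 1987). The matrix gene COL3A1 was higher in each later library (491, 1286, 2058 and 1624). Like ZEB1, the first 3 were lowest at D4 and higher at D8 than at D4, with log2 ratios of D4 to D0 of -1.95, -3.69 and -3.32. The 3 reliably expressed smooth muscle markers, ACTA2, DES and CNN1, were likewise highest at D0, lowest at D4 and higher at D8 than at D4. Unlike ZEB1, DES was not higher at D8 (35.7) than at D2 (37.7), and MYH11, with an FPKM under 1, was lowest at D8. The part of the smooth muscle markers in the ZEB1 values was not tested.

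Of 24 cofactors and dimer partners, 23 were listed and 22 reliably expressed. At D2, 0 were at least 2-fold higher than at D0 and 3 lower, at D4 1 was higher and 1 lower, and at D8 0 were higher and 3 lower, with medians of -0.28, -0.12 and -0.50. The D2 and D4 counts were near or below those shares of all mRNAs (6.67% and 10.1% at D2, 10.4% and 8.81% at D4). At D8, 3.60% of all mRNAs were higher and 3.68% lower, and the 3 lower of 22 were above the latter share. Named after their values were seen, the CtBP corepressors CTBP1 and CTBP2 and the E-proteins TCF3, TCF4 and TCF12 all stayed within 2-fold of D0. ID1, an inhibitor that sequesters E-proteins, had an FPKM of 93.9 in the D0 library, 178 in that of D2, 303 in that of D4 and 51.0 in that of D8, with D4 highest, and ID2 had 7.92, 10.5, 15.3 and 3.07. The more abundant ID3 was highest at D0 (793, 484, 546 and 345), and so was ID4 (7.40, 5.88, 5.25 and 3.94), which was named after its values were seen. AJUBA, a LIM protein known as a SNAI corepressor, was lower in all 3 later libraries (10.5, 1.96, 2.02 and 4.06).

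TGF-beta signalling is a known inducer of these factors. Of its 10 genes, 9 were reliably expressed, with 2 at least 2-fold higher and 2 lower at D2, 3 higher and 1 lower at D4, and 0 higher and 1 lower at D8 (all mRNAs 6.67% and 10.1%, 10.4% and 8.81%, and 3.60% and 3.68%). Their median log2 ratio to D0 was -0.09, 0.17 and -0.14 at these stages. SMAD3, which carries the signal to the nucleus, had an FPKM of 4.17 at D0 and then 8.75, 18.0 and 3.21 at D2, D4 and D8, and SMAD2 had 7.92, 3.03, 3.33 and 3.91. The coreceptor TGFBR3 had 3.37, 23.3, 22.7 and 3.27. TGFB3, a ligand, was lower at D2 (8.89, 3.43, 6.83 and 8.30). The receptors TGFBR1 and TGFBR2 and the common SMAD4, named after their values were seen, stayed within 2-fold of D0.

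Of 9 genes for the turnover of SNAI and TWIST proteins, all were reliably expressed and 2 passed 2-fold against D0, the kinase gene PRKD1 (lower at D2 and D4, FPKM 3.61 at D0 and 1.53 at D4) and the deubiquitinase gene USP10 (higher at D4, 2.67 at D0 and 7.51 at D4), beside 10.1% of all mRNAs lower at D2, and 10.4% higher and 8.81% lower at D4. The list medians were -0.18, -0.16 and -0.24. All 8 RNA-binding proteins known to favour or hinder circle formation were reliably expressed as well. Their median log2 ratio to D0 was -0.52, -0.26 and -0.37 at D2, D4 and D8. MBNL1, which can promote circles, was lower at D2 (FPKM 52.7 at D0 and 22.9 at D2), and ADAR, an RNA-editing enzyme that can oppose them, was higher at D4 (2.82 at D0 and 6.08 at D4), while the other 6 stayed within 2-fold of D0 in each library. QKI, which is known to promote circles and was named after its values were seen, had 25.6, 13.4, 14.1 and 19.4 in the libraries of D0, D2, D4 and D8.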

How the data were processed

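After trimming, the authors aligned reads to Sus scrofa 11.1 (HISAT2 2.0.5 per the submitters' processing notes), assembled lncRNAs and deposited FPKM per gene, and from BWA-MEM alignments and CIRI they deposited SRPBM, a signal value per circRNA with at least 2 junction reads. Both stand in 1 column and were separated by biotype. The read counter was not given in the sources used here. The members and the 6 gene lists and 7 marker lists were chosen with earlier results of these data known.

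Library totals were computed from the deposited FPKM of tRNA genes with 1 read, whose length is their span, and reads of a gene from the smallest whole length that gave whole reads in all 4 libraries (tolerance 0.01), so that reads are exact or too few and intervals, if anything, too wide. Junction reads were SRPBM divided by the value of 1 read, and 100% of values were whole within that tolerance. Of the genes with FPKM, 20259 matched RefSeq by symbol, start and end. Ratios used log2(FPKM + 0.01) with exact binomial intervals, in Python 3.11.15 and scipy 1.17.1, tested on simulated data. The normal approximation was used for circles per mRNA. All 7 genes and all circles with at least 10 reads were named, and of each list some of the at most 6 genes with the largest mean change past 2-fold. Alternatives were pseudocounts, filters and scalings.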

Additional observations from a re-analysis of the deposited data

How the results depend on the processing

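No paired analysis was possible because each stage has 1 library. For the same reason no library could be left out. Of the 65 alternative values of the counts and of circles per mRNA, 55 stayed within 1.5 times the count or within the counting interval. With a pseudocount of 1, 1 gene in place of 2 passed 2-fold for D2 vs D0, since TWIST2 was at the limit. With at least 5 junction reads in one library, 5 ZEB1 circles in place of 3 passed 2-fold for D4 vs D2 and 4 in place of 2 for D8 vs D4, and with at least 20 reads 1 passed for D8 vs D4, because other circles were then compared. The log2 ratio of circles per mRNA to D0 moved at D4 from 0.19 to 0.36 when scaled to the total of junction reads. At D8 it moved from -0.41 to -0.57 under median-ratio scaling of FPKM and to -0.57 with the 6 circles found in all 4 libraries. Without ssc_circ_0005080, an alternative chosen after seeing the data, it was 0.27, 0.029 and -0.65 (D2, D4 and D8), and the circles ending at 42147610 reversed against D0 to -0.80 at D4 and -1.75 at D8. Of 194 alternative values of single genes, circles and sums of circles, 151 stayed within the counting interval, 41 moved beyond it and these 2 sums reversed. Ratios whose interval included 0 could also change sign, as for ZEB2 at D2 vs D0 (-0.04, and 0.07 when scaled to summed protein-coding FPKM). Under median-ratio scaling, 2 genes in place of 3 passed 2-fold for D8 vs D4. Circles with under about 10 junction reads are limited by depth, and the spread among animals and among libraries was not measured.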
